A study of Homo sapiens with 11 samples.

Results

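Where SOX10, MITF and TFAP2A sat relative to one another, to the remodelling ATPase SMARCA4 and to acetylated histone H3 lysine 27 (H3K27ac) was described in untreated uveal melanoma cells. The members were the 5 chromatin immunoprecipitation sequencing (ChIP-seq) libraries, of 11 samples in the series, made from cells given DMSO, the solvent, for 4 h. All came from 92-1, an established cell line derived from 1 uveal melanoma, a cancer of the melanocytes of the eye, so every value below belongs to 1 line. There was 1 library per antibody and no replicate, so no test was made between antibodies, no p-value is given, and the intervals printed (95%, Wilson) cover counting error over peaks only. The lists deposited held 103379 peaks for SOX10, 89519 for MITF, 142667 for TFAP2A, 101987 for SMARCA4 and 68093 for H3K27ac. The sample titles write AP-2 for the target that the antibody label names as TFAP2A, and BRG1 is another name of SMARCA4.

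SOX10, a factor with an HMG box, specifies neural crest derivatives such as melanocytes and Schwann cells, and it activates the gene of MITF. MITF is a basic helix-loop-helix factor that binds E-boxes and drives pigment, lysosome and survival genes, and TFAP2A is the AP-2 factor of neural crest and melanocytes, which binds a GC-rich palindrome. SMARCA4 is a motor of the BAF complexes, which move nucleosomes and open chromatin, and H3K27ac is carried by nucleosomes at active promoters and enhancers.

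After peaks on unplaced contigs were left out, 103300 SOX10, 89449 MITF, 142603 TFAP2A, 101954 SMARCA4 and 68028 H3K27ac peaks remained. They covered between 1.13% (MITF) and 2.31% (H3K27ac) of the chromosomes. Median peak widths were 303 to 327 bp for the factors and SMARCA4, and 515 bp for H3K27ac. Library depth was estimated from the peak values, as the low end of the recovered background per base of the shortest peak. Relative to SOX10, this estimate was lowest for MITF (0.703) and otherwise lay between 0.838 and 0.952. The median number of reads recovered at a summit was 15 to 22. The share of peaks with −log10 p of at least 10, called strong here, ran from 18.9% for SMARCA4 to 47.4% for H3K27ac, and the overlaps below are also given for strong peaks.

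Promoters show what the factors share and where they differ, since their letters could be read beside the peaks. The RefSeq table (GRCh38.p14) held 21982 windows of 15692 protein-coding genes, each from 250 bases before to 50 after a transcription start. Of these windows, 28.3% held a SOX10 summit, 18.7% a MITF summit and 26.9% a TFAP2A summit, but only 11.4% a SMARCA4 summit and 8.17% an H3K27ac summit. Summits of all 3 factors lay in 1686 windows (7.67%). The 8 sequences below are the 250 bases before the start in genes of the lists used here, taken from windows with summits of at least 2 factors and with the most motif matches, so their motif number is a result of the choice. Capitals mark the motifs searched, each on both strands. For SOX factors these were the core words ACAAAG, found in 13.6% of all windows, and also ACAAT, found in 21.5%. For MITF they were the E-box CACGTG, found in 8.32% of windows, and its variant CATGTG, found in 8.97%. For AP-2 it was the palindrome GCCNNNGGC, found in 27.3%. E-box and AP-2 matches can overlap, as at GPR143. A BRD9 window that met the same rule was left out because another start of that gene lies just upstream of it, and the DCT window lies inside the full extent of its gene, which has a longer transcript.
TYR, chr11:89177625-89177874, + strand: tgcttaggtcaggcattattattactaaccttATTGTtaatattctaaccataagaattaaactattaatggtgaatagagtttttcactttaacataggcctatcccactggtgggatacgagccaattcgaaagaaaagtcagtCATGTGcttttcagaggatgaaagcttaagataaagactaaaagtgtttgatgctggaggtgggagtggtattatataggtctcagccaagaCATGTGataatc
DCT, chr13:94479683-94479932, - strand: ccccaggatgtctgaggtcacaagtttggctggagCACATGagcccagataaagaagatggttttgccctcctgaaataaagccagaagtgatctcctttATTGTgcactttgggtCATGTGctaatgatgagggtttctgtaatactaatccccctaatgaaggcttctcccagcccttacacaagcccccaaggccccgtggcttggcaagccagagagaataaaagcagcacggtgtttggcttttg
SLC24A5, chr15:48120740-48120989, + strand: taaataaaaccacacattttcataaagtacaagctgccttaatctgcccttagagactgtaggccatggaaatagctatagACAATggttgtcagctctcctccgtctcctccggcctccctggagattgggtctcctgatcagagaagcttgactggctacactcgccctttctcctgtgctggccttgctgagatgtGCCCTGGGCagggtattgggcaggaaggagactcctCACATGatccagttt
GPR143, chrX:9765848-9766097, - strand: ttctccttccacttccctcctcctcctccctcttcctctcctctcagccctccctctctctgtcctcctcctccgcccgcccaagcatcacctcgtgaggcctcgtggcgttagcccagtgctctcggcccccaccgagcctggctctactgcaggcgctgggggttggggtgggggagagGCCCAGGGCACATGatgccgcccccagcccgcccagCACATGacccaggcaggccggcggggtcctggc
FOXD3, chr1:63322317-63322566, + strand: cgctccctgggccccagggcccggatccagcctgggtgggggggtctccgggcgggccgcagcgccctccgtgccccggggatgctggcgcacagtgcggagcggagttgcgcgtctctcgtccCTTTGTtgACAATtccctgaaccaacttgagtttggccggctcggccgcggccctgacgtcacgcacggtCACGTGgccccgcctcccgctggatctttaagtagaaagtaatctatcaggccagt
LAMP1, chr13:113296989-113297238, + strand: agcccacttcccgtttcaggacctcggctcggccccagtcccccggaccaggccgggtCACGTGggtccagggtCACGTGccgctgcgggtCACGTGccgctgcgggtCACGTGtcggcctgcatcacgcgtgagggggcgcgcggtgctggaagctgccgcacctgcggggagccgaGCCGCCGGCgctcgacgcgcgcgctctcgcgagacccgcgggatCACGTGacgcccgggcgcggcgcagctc
CLCN7, chr16:1475029-1475278, - strand: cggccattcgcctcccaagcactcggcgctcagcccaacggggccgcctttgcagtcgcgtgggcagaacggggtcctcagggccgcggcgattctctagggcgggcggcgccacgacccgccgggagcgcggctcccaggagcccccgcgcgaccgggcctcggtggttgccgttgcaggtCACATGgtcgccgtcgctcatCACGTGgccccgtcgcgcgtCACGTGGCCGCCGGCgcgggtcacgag
CTSA, chr20:45891085-45891334, + strand: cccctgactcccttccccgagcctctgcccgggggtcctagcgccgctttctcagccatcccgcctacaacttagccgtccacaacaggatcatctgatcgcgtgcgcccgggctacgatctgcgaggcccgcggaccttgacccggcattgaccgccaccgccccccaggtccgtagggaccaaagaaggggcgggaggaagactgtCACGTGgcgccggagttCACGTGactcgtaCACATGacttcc

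TYR encodes tyrosinase, the first enzyme of melanin synthesis. In its promoter the MITF summit lay 38 bases before the start (−log10 p 197), the SOX10 summit 43 bases before it (44.7) and the TFAP2A summit 44 bases after it (57.4). The −log10 p, the authors' own value, ranks a peak within its list and is not compared between antibodies. A SMARCA4 summit (17.7) lay in the window too, and no H3K27ac summit did. At DCT, dopachrome tautomerase, the summits lay 159 (MITF), 123 (SOX10) and 94 (TFAP2A) bases before the start, with −log10 p of 119, 41.4 and 47.1. In both windows the SOX10 and MITF summits lay within 50 bp of each other, and DCT also held a SMARCA4 but no H3K27ac summit. A window without an H3K27ac summit can still lie under an H3K27ac peak whose summit is elsewhere. The DCT window lay within merged factor peaks (chr13:94479410-94480535) that overlapped an H3K27ac peak.

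SLC24A5, a melanosome ion exchanger, was the only sequence shown with a match to each of the 3 kinds of motif. Its MITF summit (−log10 p 56.0) lay 1 base after the start, the SOX10 summit (10.7) 34 bases after it and the TFAP2A summit (27.5) 40 bases before it. GPR143, the ocular albinism receptor of melanosomes, had MITF, SOX10 and TFAP2A summits 106, 96 and 62 bases before the start, with −log10 p of 261, 49.9 and 63.9. FOXD3, a neural crest factor, had a MITF summit (41.4) 60 bases, a SOX10 summit (19.6) 121 bases and a TFAP2A summit (8.51) 191 bases before the start. In these 3 windows no H3K27ac summit was found, and SMARCA4 had one at GPR143 alone (25.7). Each of these 3 genes had 1 site of merged peaks of all 3 factors in or within 10 kb of it. That site overlapped both a SMARCA4 and an H3K27ac peak.

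The lysosome genes carried E-boxes and no SOX match in the sequences shown. LAMP1, a lysosomal membrane protein, held 5 copies of CACGTG, and its MITF, TFAP2A and SOX10 summits lay 124, 127 and 129 bases before the start, within 5 bp of one another. Their −log10 p was 286, 51.3 and 81.0, with no SMARCA4 summit in the window. CLCN7, a lysosomal chloride transporter, had a MITF summit (277) 49 bases and a SOX10 summit (35.0) 98 bases before its start, and CTSA, a lysosomal protease, had them 34 (184) and 98 (44.1) bases before. Neither window held a TFAP2A summit.

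Over all promoter windows, the E-box followed MITF most closely. A CACGTG or CATGTG stood in 34.3% of the 4108 windows with a MITF summit (95% Wilson interval 32.8 to 35.7) and in 12.4% of those without, and the share was 50.8% where the MITF peak was strong. The difference of 21.8 percentage points was 23.4 when taken within 5 classes of window GC content, from low to high. GCCNNNGGC stood in 37.9% of windows with a TFAP2A summit (36.7 to 39.1) and in 23.4% without, a difference of 14.5 points that came to 7.08 within GC classes. Windows with a TFAP2A summit had a median GC content of 66.0% and those without 60.3%. For SOX10 the share with ACAAAG or ACAAT was lower with a summit (25.4%, 24.3 to 26.5) than without (33.3%). Within GC classes the difference was 0.587 points in the opposite direction. No interval was computed for this small value, so it is not read as a higher share. Windows with a SOX10 summit had a median GC content of 65.3%, against 60.7%. With chromosome 8 left out, 16.5% of SOX10, 12.0% of MITF and 12.8% of TFAP2A summits lay within 1 kb of a listed transcription start. Windows were listed for 15692 of 19970 protein-coding genes, so summits near an unlisted start are not counted. The motif values here and below therefore cover a minority of each factor's peaks. Whether they hold at peaks outside the promoter windows was not tested.

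Position gave the same order of the motifs. E-boxes occurred 3.12 times per kb within 50 bp of a MITF summit and 0.620 times per kb farther out in the same windows, a ratio of 5.04. The AP-2 palindrome occurred 2.34 times per kb near TFAP2A summits against 1.37 farther out (ratio 1.71), and SOX matches 1.17 against 1.03 near SOX10 summits (ratio 1.14). SOX10 summits also had more E-boxes near them, 1.15 against 0.641 per kb. In the 2654 windows that held a MITF summit too, the densities were 2.21 and 1.11, and in the 3572 that did not, 0.341 and 0.3004. Of the 663 E-boxes within 50 bp of a SOX10 summit, 552 were in windows with a MITF summit. The rise was not particular to SOX10, as E-boxes near TFAP2A summits stood at 0.878 against 0.636 per kb farther out. There the densities were 1.80 and 1.21 in windows with a MITF summit, and 0.296 and 0.291 in those without. The AP-2 palindrome showed no such rise at SOX10 summits, with 1.39 per kb both near and far.

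**Figure D1:**
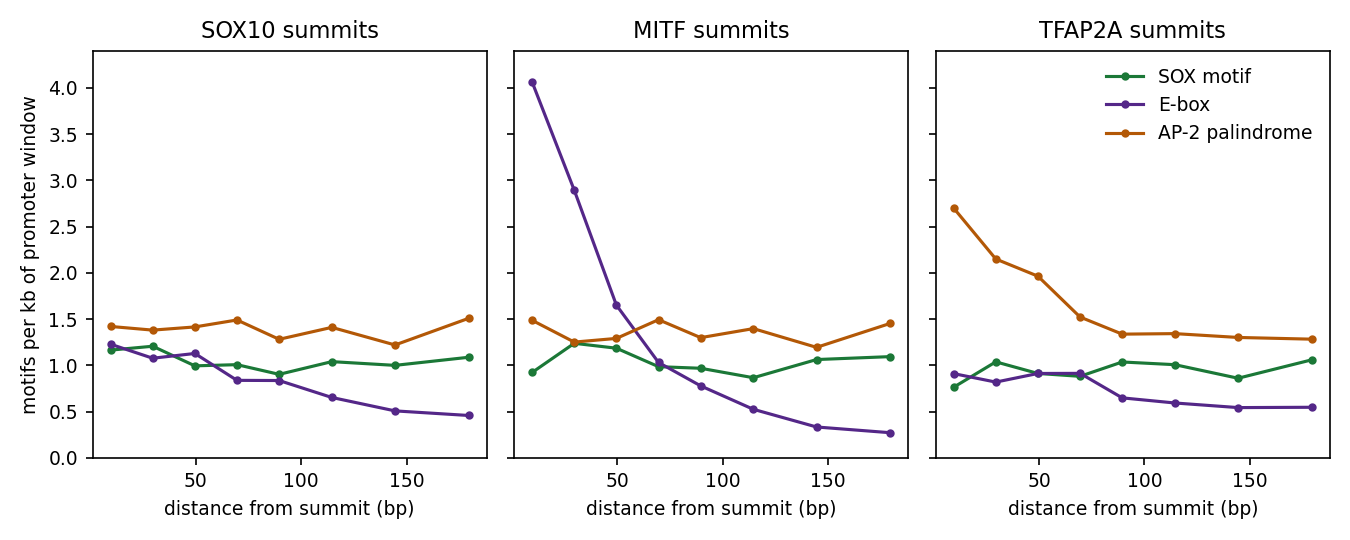
Motif matches per kb of promoter window (y axis) against distance from the summit in bp (x axis), for SOX10, MITF and TFAP2A summits in 3 panels; lines join bins of 20 to 40 bp. E-boxes fall from 4.06 per kb next to MITF summits to 0.271 per kb at 160 to 199 bp, the AP-2 palindrome is highest next to TFAP2A summits, and SOX matches are nearly flat in all 3 panels.

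Genome-wide, each factor's peaks were shared with the others more often than the span of the other list alone would give. SOX10 and MITF shared 45.1% of SOX10 peaks and 52.7% of MITF peaks (52.3 to 53.0), where a shared peak has at least 1 bp in common. SOX10 and TFAP2A shared 61.3% of SOX10 peaks (61.0 to 61.6) and 43.3% of TFAP2A peaks, and MITF and TFAP2A shared 48.6% and 29.7% respectively. To set this against size, the share of summits inside the other list was compared with the share of the chromosomes that the other list covered. Of SOX10 summits, 39.9% lay inside MITF peaks, which covered 1.13% of the span, a ratio of 35.4. The ratio was 33.1 for MITF summits in SOX10 peaks, 28.5 for SOX10 in TFAP2A and 22.1 for MITF in TFAP2A. Open chromatin was not measured here, and its part in these ratios was not tested.

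By share of peaks, SMARCA4 overlapped SOX10 and TFAP2A peaks about as often, and MITF peaks less often. Of SMARCA4 peaks, 56.5% (56.2 to 56.8) met a SOX10 peak, 56.0% (55.7 to 56.3) a TFAP2A peak and 40.6% (40.3 to 40.9) a MITF peak. Among strong SMARCA4 peaks the shares were 95.9%, 92.1% and 79.8%. Seen from the factors, 55.1% of SOX10, 45.9% of MITF and 38.1% of TFAP2A peaks met SMARCA4. H3K27ac peaks met SOX10 in 64.3%, TFAP2A in 59.9%, SMARCA4 in 60.9% and MITF in 49.3%. Set against the span that each list covered, SMARCA4 summits gave ratios of 33.5 for SOX10, 29.7 for MITF and 24.4 for TFAP2A peaks. For H3K27ac summits the ratios were 30.1, 23.9 and 19.6, so by this measure MITF ranked above TFAP2A for both. MITF had the lowest estimated depth, and the part of depth in these shares and ratios was not tested.

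**Figure D2:**
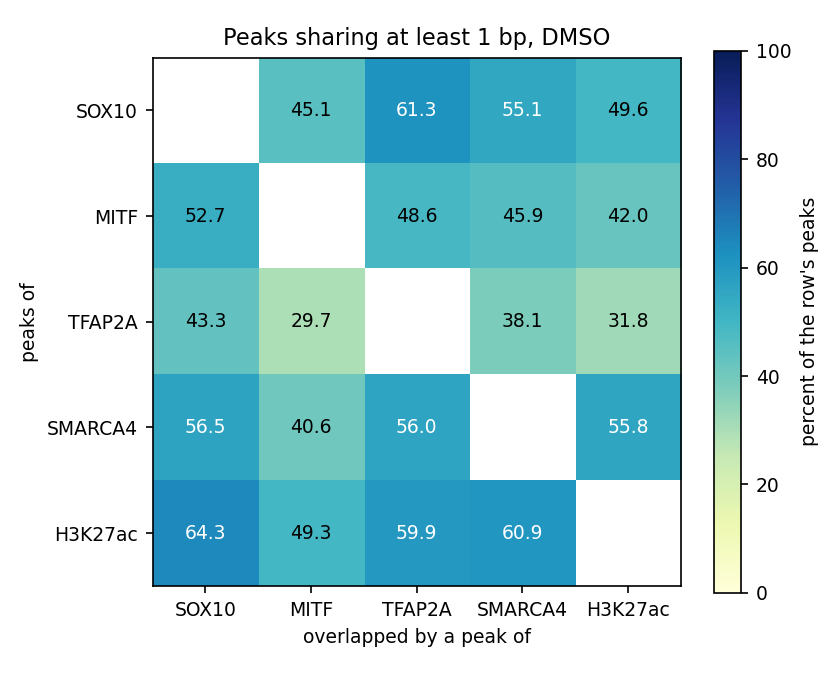
Percent of the peaks of the antibody in each row that share at least 1 bp with a peak of the antibody in each column, on a colour scale from 0 to 100%. The highest value is H3K27ac peaks with SOX10 (64.3%) and the lowest is TFAP2A peaks with MITF (29.7%).

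Sharing rose with peak strength for every pair. When each list was divided into deciles by −log10 p, 24.7% of the weakest MITF peaks and 98.7% of the strongest met a SOX10 peak. For TFAP2A peaks meeting SOX10 the shares were 18.3% and 96.5%, and for SOX10 peaks meeting TFAP2A they were 34.2% and 93.7%. MITF peaks that met SOX10 had a median −log10 p of 12.5, against 4.94 for those that did not. TFAP2A peaks that met SOX10 had a median of 22.3 against 6.45. In the strongest decile, sites of MITF without SOX10 or TFAP2A were rare: 0.738% of these MITF peaks stood alone, against 68.0% in the weakest decile.

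The summits of the 3 factors nearly coincided, and those of H3K27ac were spread more widely around them. Within shared sites, the strongest summits of SOX10 and MITF were a median of 50 bp apart (quartiles 21 and 109), those of SOX10 and TFAP2A 50 bp (21 and 112) and those of MITF and TFAP2A 65 bp (27 and 148). SMARCA4 summits lay 62 bp from SOX10, 66 bp from MITF and 70 bp from TFAP2A summits, also as medians. In contrast, H3K27ac summits lay 234 bp from SOX10, 243 bp from MITF and 246 bp from TFAP2A summits, and 221 bp from SMARCA4 summits. Of shared sites, 50.1% had SOX10 and MITF summits within 50 bp, and 10.3% had SOX10 and H3K27ac summits that close.

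At stronger sites the factor summits lay closer together and the H3K27ac summits lay farther away. Where both peaks were in the strongest decile of their lists, SOX10 and MITF summits lay 26 bp apart, SOX10 and TFAP2A 31 bp, MITF and TFAP2A 43 bp, and SOX10 and SMARCA4 28 bp. At such sites H3K27ac summits lay 354 bp from SOX10, 343 bp from MITF and 363 bp from TFAP2A. Over all pairs of peaks with −log10 p of at least 10, the factor distances were 38, 42 and 56 bp in the same order, and SOX10 to H3K27ac was 269 bp. A distance within a shared site cannot exceed the width of the merged peaks. H3K27ac peaks were wider (median 515 bp) than factor peaks (303 to 327 bp), and the part of width in these distances was not tested.

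**Figure D3:**
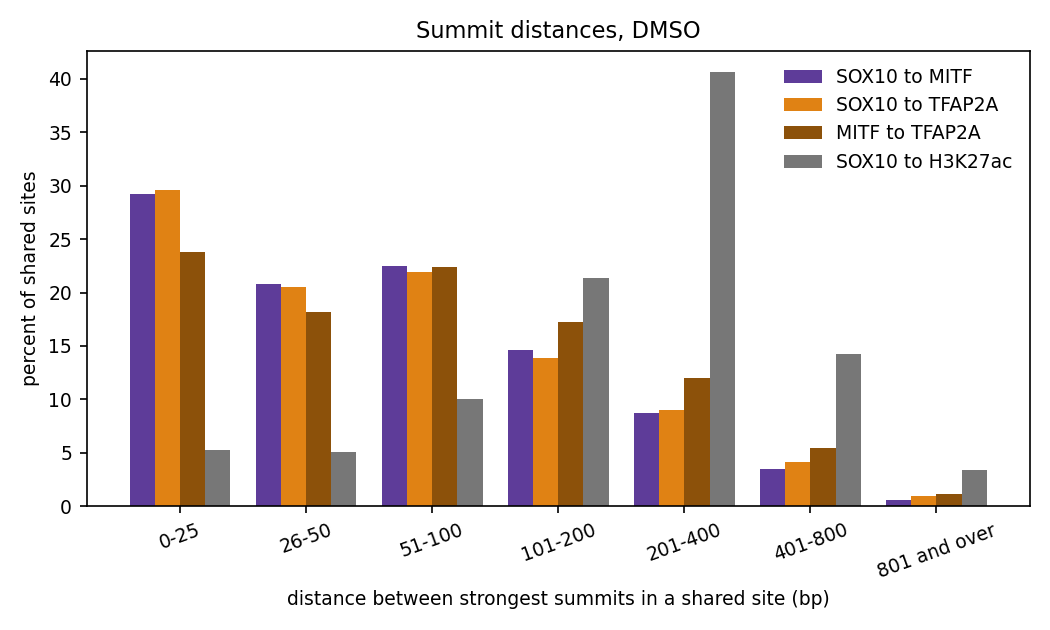
Percent of shared sites (y axis) by distance between the strongest summits of the 2 antibodies in bp (x axis, bins of unequal width), for 4 pairs. The 3 factor pairs are highest at 0 to 25 bp (29.3% for SOX10 to MITF). SOX10 to H3K27ac is highest in the bin that ends at 400 bp, which is wider than the bins before it.

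Merging overlapping factor peaks gave 214460 sites in 7 combinations. TFAP2A without the other factors was the largest class (74222 sites, 34.6%), then MITF without the others (35303, 16.5%) and sites of all 3 factors (34961, 16.3%). SOX10 without the others took 29327 sites (13.7%). Among sites of 2 factors, SOX10 with TFAP2A (24484, 11.4%) outnumbered SOX10 with MITF (9865, 4.60%) and MITF with TFAP2A (6298, 2.94%). Of SOX10 peaks 37.4% belonged to a site of all 3, as did 42.3% of MITF peaks and 26.1% of TFAP2A peaks. Sites of all 3 were wide, with a median of 747 bp against 235 to 268 bp for sites of 1 factor, and merging can itself widen a site and add factors to it. When sites were built from 100 bp either side of each summit, 12.1% held all 3.

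Over all sites, SOX10 was the factor most often present where the others met. Of the 41259 sites with MITF and TFAP2A, 84.7% (84.4 to 85.1) also had SOX10, against 21.8% of sites with MITF without TFAP2A and 24.8% of sites with TFAP2A without MITF. TFAP2A was present at 78.0% of sites with SOX10 and MITF, and MITF at 58.8% of sites with SOX10 and TFAP2A. At sites without SOX10, MITF met TFAP2A seldom: 7.82% of TFAP2A sites lacking SOX10 had MITF, and 15.1% of MITF sites lacking SOX10 had TFAP2A. Over 1 kb from gene boundaries SOX10 joined MITF and TFAP2A at 82.3% of sites, and TFAP2A joined SOX10 and MITF at 74.5%. With H3K27ac present these shares were 95.7% and 84.5%. Without H3K27ac they were 62.6% (61.8 to 63.4) and 63.0% (62.2 to 63.8), so SOX10 did not lead there. At sites of all 3 factors, strength ranked together more for SOX10 and MITF (Spearman rho 0.401) and for SOX10 and TFAP2A (0.383) than for MITF and TFAP2A (0.172), over 34961 sites whose points share the same 3 libraries.

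SMARCA4 and H3K27ac went with the number of factors and with SOX10. SMARCA4 overlapped 85.0% of sites of all 3 factors (84.6 to 85.4), 54.2% of SOX10 with TFAP2A, 53.7% of SOX10 with MITF and 31.1% of MITF with TFAP2A. For single factors it overlapped 20.8% of SOX10, 11.1% of TFAP2A and 8.46% of MITF sites. H3K27ac overlapped 75.5% of sites of all 3 (75.1 to 75.99), 49.0% of SOX10 with MITF, 41.0% of SOX10 with TFAP2A and 18.9% of MITF with TFAP2A. On single-factor sites it was at 23.1% (SOX10), 9.24% (MITF) and 7.94% (TFAP2A). Both lay at 68.9% of sites of all 3, and neither at 86.1% of sites of MITF alone and 85.0% of TFAP2A alone.

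Sites of all 3 factors were also the widest and strongest: 27.8% were over 1 kb wide, and 71.3% had a strong SOX10 peak, against 10.2% of sites of SOX10 alone. Between sites of all 3 factors and sites of 1, the SMARCA4 difference was 72.6 percentage points and the H3K27ac difference 64.1. Averaged within deciles of the strongest factor peak, these differences came to 44.9 and 44.3 points. In the strongest decile itself, SMARCA4 overlapped 95.7% of 16576 sites of all 3 factors and 52.3% of 505 sites of 1 factor. H3K27ac overlapped 87.3% and 28.7% of them.

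**Figure D4:**
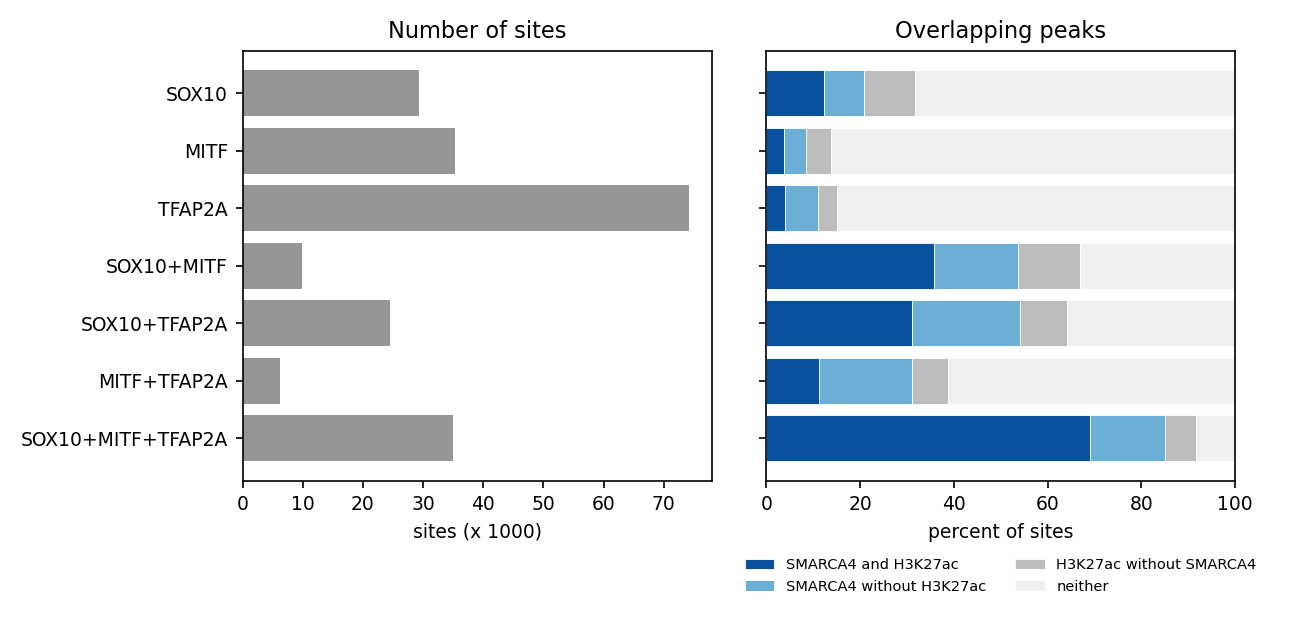
Left, number of sites, in units of 1000, for each combination of SOX10, MITF and TFAP2A; right, percent of those sites that overlap SMARCA4 peaks, H3K27ac peaks, both or neither. Sites of all 3 factors overlap both in 68.9%, and sites of MITF or TFAP2A alone overlap neither in 86.1% and 85.0%.

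When all 5 lists were merged, 234754 sites fell into all 31 possible combinations. The most frequent was TFAP2A alone (63056 sites, 26.9%), then MITF alone (30405, 12.95%), and then all 5 antibodies together (23043, 9.82%). Sites of 1 antibody made up 63.0%. The sites of all 5 had a median width of 1760 bp, and 29.2% lay within 1 kb of a gene boundary. From the side of the marks, 29.0% of SMARCA4 and 25.6% of H3K27ac peaks met no factor peak. Of the narrowest 25% of H3K27ac peaks (median 233 bp), 54.5% met none, and of the widest 25% (median 2119 bp), 0.676%. All 1025 H3K27ac peaks over 5 kb met a factor peak, and 97.1% of them met a site of all 3, with up to 8 such sites in 1 peak.

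The combinations differed in where they lay. Sites within 1 kb of either boundary of a protein-coding gene, starts and ends together, made up 22.9% of sites of all 3 factors and 21.6% of SOX10 with TFAP2A. They made up 6.46% of SOX10 with MITF and 7.97% of MITF with TFAP2A. Among single factors the share was 8.86% for SOX10, 7.68% for TFAP2A and 3.18% for MITF. Another site of all 3 lay within 10 kb of 39.3% of the sites of all 3, and one lay that close to 36.95% of SOX10 with TFAP2A, 36.7% of SOX10 alone, 35.1% of SOX10 with MITF, 32.6% of MITF with TFAP2A, 31.2% of TFAP2A alone and 27.7% of MITF alone. By chromosome, 14.03% (chromosome 13) to 18.5% (X) of factor sites held all 3 factors.

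The strongest sites, none of them within 1 kb of a gene boundary, show the classes as single places, ranked by their weakest factor. The first of all 3 factors lay inside CD44, a hyaluronan receptor (chr11:35166115-35167289), with −log10 p of 275 for SOX10, 322 for MITF, 345 for TFAP2A, 125 for SMARCA4 and 208 for H3K27ac. Its 3 factor summits fell within 70 bp. The second lay 83.8 kb from MYO10, an unconventional myosin (chr5:17020069-17022388), with summits within 18 bp, and the third inside TIMP2, a metalloproteinase inhibitor, within 50 bp. All 3 places also had SMARCA4 and H3K27ac peaks.

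The strongest sites of a pair of factors had their 2 summits 5 to 35 bp apart. SOX10 with MITF had strong sites inside FMN1, a formin (chr15:33143718-33144452), and 52.7 kb from NHLRC3, with summits 26 and 6 bp apart. Both had SMARCA4 peaks (10.4 and 7.98) and H3K27ac peaks (186 and 72.4). SOX10 with TFAP2A peaked inside KCNJ16, a potassium channel (chr17:70130104-70131352), with −log10 p of 206 and 320, beside NRARP, a Notch-regulated protein, and inside SIPA1L1. At those sites SMARCA4 was 54.1, 62.7 and 35.1. H3K27ac was 4.05 at KCNJ16, had no peak at NRARP and was 11.8 at SIPA1L1. MITF with TFAP2A peaked near H3-4, inside SAXO5 and near MYH13, with summits 5, 35 and 12 bp apart and SMARCA4 at 13.6, 8.47 and 3.78. There H3K27ac was 11.9 near H3-4 and 18.3 at SAXO5, and had no peak near MYH13.

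Single-factor sites could be strong without either mark. TFAP2A alone peaked inside PRDM11 (chr11:45105412-45106373, −log10 p 273) and near NCKAP5L (205), and neither had a SMARCA4 or H3K27ac peak. MITF alone peaked inside PCDH15, a protocadherin (139), and POFUT3 (96.7) without either mark, and inside POR, cytochrome P450 reductase (93.0), with both. SOX10 alone peaked inside LRP6, a Wnt co-receptor (119), inside C1orf141 (111) and near LOC124907996 (97.1), all with SMARCA4, and all but the last with H3K27ac as well.

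Among 19970 protein-coding genes, 66.3% had a site of all 3 factors in the gene or within 10 kb of it, and 42.0% had one within 1 kb of a boundary. A further 7.62% had no peak of any factor. The share moved with gene length, from 47.9% in the shortest 25% of genes (median 3.89 kb) to 84.0% in the longest 25% (median 128 kb). The 10 genes with the most such sites were DMD (35), PDE4D (31), BCAS3, CDKAL1, DLGAP1, FHIT, PRKG1 and SOX6 (25 each), and RAD51B and SOX5 (24 each). All 10 are long genes, from 698 kb (CDKAL1) to 2220 kb (DMD). SOX5 and SOX6, SOX factors without an activation domain, are the members of the neural crest list among them. At SOX6 the strongest such site had −log10 p of 291 for SOX10, 287 for MITF and 180 for TFAP2A, and at SOX5 105, 281 and 117.

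The pigment gene list was fully covered, as were the MAP kinase feedback and lysosome lists described below. All 18 pigment enzymes and melanosome proteins had a site of all 3 factors, with SMARCA4 and H3K27ac at such a site in each, beside 66.3% and 55.1% of all genes. At a boundary 15 of 18 had one. The median was 4 sites per gene, against 1 over all genes, and 5 of 18 had 5 or more, beside 6.73% of all genes. These genes are also longer, with a median of 40413 bp against 24190 bp over all genes. RAB38, a melanosome trafficking GTPase, had most (11). All 18 had an H3K27ac peak in the gene or within 10 kb, beside 74.6% of all genes. Every gene of the Gαq, MAP kinase feedback, BAF subunit, lysosome and ribosomal protein lists had one too. Such a peak can lie nearer to another gene.

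PMEL, the fibril protein of melanosomes, had the strongest site of the 5 pigment genes described singly (chr12:55970386-55971404). This site lay outside the gene, within 10 kb of it. Its −log10 p was 262 for SOX10, 314 for MITF and 171 for TFAP2A, with the 3 summits within 57 bp. In all, PMEL had 16 SOX10, 10 MITF, 7 TFAP2A, 13 SMARCA4 and 9 H3K27ac peaks. MLANA, a melanosome antigen, had its strongest site inside the gene, with 125, 283 and 87.0, and its 15 SOX10 peaks were more than its 4 TFAP2A peaks. At TYR the strongest such site lay upstream (chr11:89175744-89176303) with 59.8, 163 and 60.1 and summits within 10 bp, and TYR had 10 SOX10, 13 MITF, 11 TFAP2A, 15 SMARCA4 and 4 H3K27ac peaks. TYRP1, tyrosinase-related protein, carried 20 SOX10, 19 SMARCA4, 7 MITF, 7 TFAP2A peaks and 1 H3K27ac peak. A number of peaks does not give their extent. Of its 3 sites of all 3 factors, 2 overlapped both SMARCA4 and H3K27ac, and the strongest, 3772 bp wide, overlapped H3K27ac. DCT had 4 sites of all 3 factors and 12 TFAP2A peaks against 7 of SOX10 and 6 of MITF.

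The genes of the factors themselves had peaks of all 3. MITF had 15 sites of all 3 factors, each with both marks, under 55 SOX10, 30 MITF, 39 TFAP2A, 78 SMARCA4 and 79 H3K27ac peaks. Its strongest had −log10 p of 151, 165 and 43.6, with summits within 85 bp. SOX10 had 4 such sites, the strongest weaker (27.1, 87.6 and 27.1) and outside the gene. TFAP2A had 4 too, and there the summits of the strongest, also outside the gene, spread over 945 bp. PAX3, the paired-box factor upstream of MITF, had 10, and at the strongest (151, 185 and 206) the summits lay within 9 bp. Of the 20 neural crest and melanocyte factors, 16 had a site of all 3 and 11 had one at a boundary, beside 66.3% and 42.0% of all genes. SOX9, TFAP2B, TWIST1 and MSX1 had none.

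Receptors and signalling genes differed among themselves. Of 6 melanocyte growth receptors, 5 had a site of all 3 factors and 3 had one at a boundary, beside 66.3% and 42.0% of all genes. MET had 9, EDNRB, the endothelin receptor, 7, ERBB3 and MC1R 4 each and NGFR 1. KIT, the stem cell factor receptor, had none, with 3 SOX10, 3 MITF, 7 TFAP2A, 4 SMARCA4 and 3 H3K27ac peaks. Of 10 genes of the Gαq pathway, which is mutated in most uveal melanomas, 9 had one, GNA11 being the exception, but only 3 had one at a boundary (42.0% of all genes). These genes are long (median 222050 bp). PLCB4, the phospholipase downstream of Gαq, had 12, the strongest at 79.0, 264 and 293. All 10 MAP kinase feedback genes had such a site, and all 10 had one at a boundary; each also had at least 1 such site with both marks. DUSP4, a MAP kinase phosphatase, and SPRY4, a Sprouty inhibitor, had 4 each.

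Housekeeping genes were also covered, at their boundaries. All 17 lysosome genes had a site of all 3 factors and 16 had one at a boundary, and of 20 cytosolic ribosomal protein genes 19 and 18 did, beside 66.3% and 42.0% of all genes. LAMP1 had 1 such site, CTSD, a lysosomal protease, had 2 and RPL8 had 6. At LAMP1 the site held no SMARCA4 peak. Of 25 BAF subunit genes 21 had one (84.0%, beside 66.3% of all genes) and 13 had one at a boundary (52.0%, beside 42.0%). SMARCA4 itself, SMARCE1, ACTL6A and BRD7 had none, and ARID1B had 22. SMARCA4 had 12 TFAP2A, 4 SOX10 and 1 MITF peak.

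Lists of other lineages were set beside those of the labelled cell type. Of genes of Schwann cells and myelin, which share SOX10 with melanocytes, 7 of 8 had a site of all 3 factors, beside 66.3% of all genes. PMP22, a protein of peripheral myelin, had 3, the strongest at 34.1, 68.8 and 29.2. Of 6 genes of the retinal pigment epithelium, 3 had one, and RPE65, its visual cycle isomerase, had none. The same site can count in different lists where genes are neighbours. RDH5 of this list lies within 10 kb of BLOC1S1 of the pigment list, and each had 4 such sites. CD79A of the blood list lies within 10 kb of RPS19 of the ribosomal protein list. For lineages unrelated to pigment the counts were 5 of 10 liver, 4 of 10 blood, 4 of 8 keratinocyte, 3 of 8 muscle and 6 of 8 neuron genes, against 66.3% of all genes. At a boundary they were 1, 1, 0, 1 and 4, beside 42.0% of all genes. H3K27ac peaks lay in or near 3, 7, 2, 1 and 6 of them, beside 74.6% of all genes, so the blood and neuron lists were near the share of all genes and the liver, keratinocyte and muscle lists below it. The keratinocyte genes are short (median 5746 bp), and 47.9% of the shortest 25% of all genes had a site of all 3. ALB had no peak of any of the 5 antibodies, and KRT5 had 1 SOX10 and 1 TFAP2A peak. PTPRC, the leukocyte phosphatase, had 1 site of all 3 factors inside the gene (69.1, 49.5 and 14.4), with both marks.

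**Figure D5:**
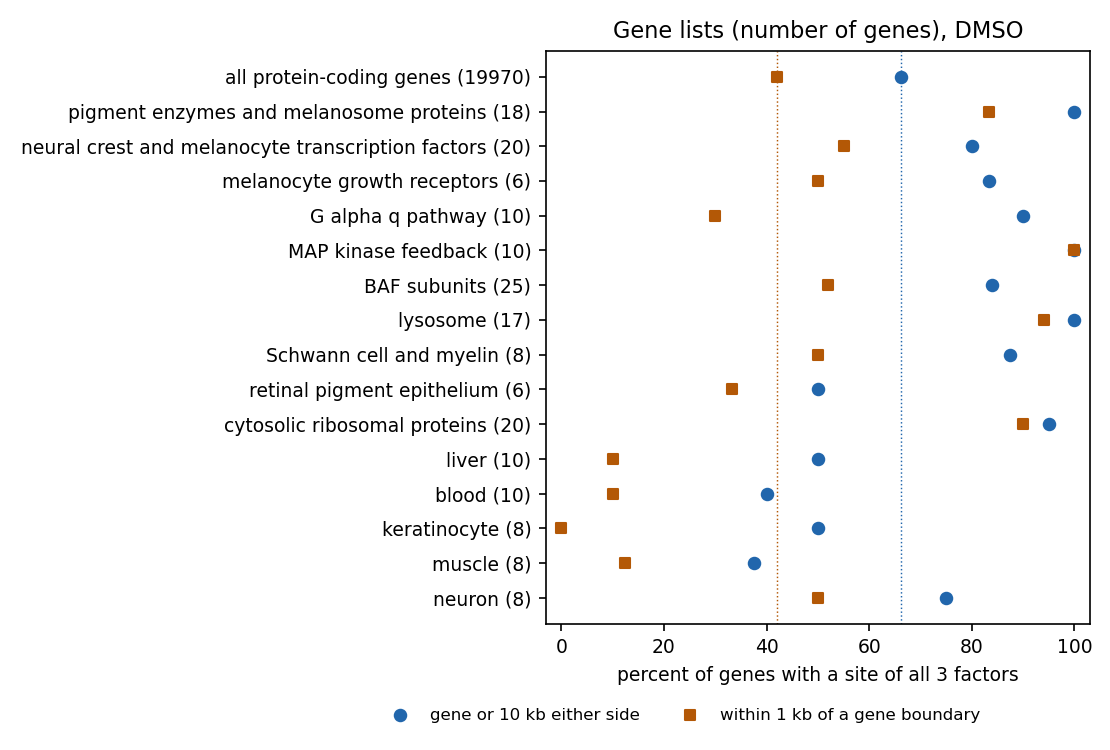
Percent of genes in each list (number of genes in brackets) with a site of SOX10, MITF and TFAP2A, in the gene or 10 kb either side (circles) and within 1 kb of a gene boundary (squares); dotted lines are all protein-coding genes (66.3% and 42.0%). Both marks coincide at 100% for MAP kinase feedback genes, and no keratinocyte gene has a site at a boundary.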

How the data were processed

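ChIP-seq peak lists of the 5 DMSO libraries were used, 1 per antibody; groups came from the sample titles. BWA, SAMtools, Picard, MACS2 and the build hg38 are named, per the submitters' processing notes; versions, settings and the control are not given in the sources used here. Each narrow list was deposited per library. The fold enrichment at the summit (a ratio), each peak's −log10 p and its −log10 q, and a score, were deposited by the authors; the score equals 10 times −log10 p, truncated. The lowest −log10 p was just above 2, and 84.8% to 95.8% of peaks had q under 0.05.

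Peaks on chromosomes 1 to 22 and X were kept. Overlap was at least 1 bp, factor sites were merged overlapping peaks, and the strongest summit per antibody was used. Reads at summits and their background were recovered from fold and p, assuming a Poisson tail. At least 99.98% of the summit reads came out whole within 0.002. The relative depth estimate was not checked against read counts. Genes were RefSeq extents (GRCh38.p14, no strand) with 10 kb either side, so exons and introns were not analysed here; 128 of 183 list genes had a promoter window. Interval code was tested on simulated data (Python 3.11.15, pandas 2.3.3). No columns were left unmapped (0).

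The members and gene lists were chosen with earlier results of these data known. Genes were named as the 3 strongest sites per combination, the 10 genes with most sites of all 3 factors, and fixed list genes; receptors, subunits and list members beyond these were named after their values were seen, to account for whole lists. Some genes that the rule names are not reported here. Alternatives covered the overlap rule, peak strength, equal list sizes, gene boundaries, site building and gene windows.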

Additional observations from a re-analysis of the deposited data

Results flagged for a closer look

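Peaks on unplaced contigs were left out of every comparison above, and they held signal. On 45 such contigs, 162 merged sites were found, and 10 of them held peaks of all 5 antibodies (6.17%), beside 9.82% on the placed chromosomes. Another 16 counts every contig site with SOX10, MITF and TFAP2A together, those 10 included. No control list was used here, so how much of this signal a control would show was not tested.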

How the results depend on the processing

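Shares are given in the order SOX10 peaks with MITF, SOX10 with TFAP2A, MITF with SOX10, MITF with TFAP2A, TFAP2A with SOX10, TFAP2A with MITF. With 50% of the first peak covered they were 36.4, 55.1, 47.3, 42.5, 36.8 and 21.9%. Counting only summits at most 200 bp apart gave 39.1, 51.2, 45.2, 38.8, 37.1 and 24.3%. For strong peaks (−log10 p of 10 or more) the values were 47.7, 67.9, 58.5, 56.0, 40.8 and 27.4%. With the 30000 strongest peaks of each list they were 51.5, 53.2, 51.8, 39.8, 52.8 and 39.2%. Over 1 kb from gene boundaries they were 44.1, 57.0, 48.3, 43.8, 38.9 and 27.5%. With lists of equal size, where fewer TFAP2A peaks enter, the shares of SOX10 peaks with TFAP2A and with MITF came close to each other, and the cause was not tested.

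Sites of all 3 factors made up 16.0% (strong peaks), 16.5% (30000 strongest), 14.1% (away from boundaries) and 12.1% (100 bp summit windows). Median summit distances SOX10 to MITF, SOX10 to TFAP2A and MITF to TFAP2A were 38, 42 and 56 bp for strong peaks, 46, 44 and 59 bp away from boundaries, and 49, 48 and 62 bp at sites with a single peak of each. The SMARCA4 difference between sites of all 3 factors and of 1 was 58.4 points for strong peaks, 74.1 away from boundaries and 44.9 within strength deciles. The H3K27ac difference was 60.5, 60.7 and 44.3 points. Genes with a site of all 3 were 54.6% for the gene extent, 83.5% with 50 kb either side and 38.9% for strong peaks. For strong peaks the motif differences were 38.3 (E-box), 19.2 (AP-2) and −7.59 points (SOX). Within GC classes, an alternative chosen after seeing the data, they were 23.4, 7.08 and 0.587 points. The SOX difference thus changed sign, to a small value without an interval that is not read as an enrichment. The windows' GC content is the only thing this alternative holds fixed. Of 58 alternative values, 56 moved beyond counting error and 1 changed sign. No paired analysis was possible because each antibody had 1 library and the labels give no replicate numbers. MITF had the lowest estimated depth, and how depth limits these values was not tested.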
